A study of Mus musculus with 26 samples.

Results

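The homeobox and Pax genes outside the Hox clusters were examined in mouse embryonic fibroblasts (MEFs). The 75 members were all protein-coding genes of the GENCODE M21 annotation whose symbol is Pax, Lhx, Irx, Dlx, Msx, Meis, Pbx, Pitx, Otx, Emx, Alx, Prrx, Barx or Gbx with a number, Nkx with a pair of numbers, or that of a SINE gene (Six2 and its numbered relatives), out of 21951 protein-coding genes. By structure they comprised 9 Pax genes, 10 paired-like genes (Alx, Otx, Pitx and Prrx), 8 LIM genes (Lhx), 6 SINE genes (such as Six2 and Six6), 13 TALE genes (Irx, Meis and Pbx) and 29 NK-like and related genes (Barx, Dlx, Emx, Gbx, Msx and Nkx). The choice used symbols and no measured value.

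The proteins of these genes bind DNA through a homeodomain, a paired domain or both, and they set cell identity and position in the embryo. Each is made in a few tissues only, and in other cells its gene is typically held silent by Polycomb. EZH2 is the subunit of Polycomb repressive complex 2 that methylates lysine 27 of histone H3, and its product H3K27me3 marks long stretches of silent developmental genes. ATRX, the protein altered in the study, is a chromatin remodeler that binds RNA.

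The groups were WT MEFs, ΔRBR MEFs and ATRX KD MEFs. In ΔRBR cells an RNA binding region (RBR) of endogenous ATRX had been removed by CRISPR, in frame and in 1 clone, so that a difference from WT cannot be told apart from a difference of that clone. ATRX KD cells expressed an shRNA against ATRX and had been selected with puromycin. All groups were MEFs, and the labels give no other treatment. RNA-Seq had 2 libraries per genotype, with 9051712 to 21723597 estimated counts each. CUT&RUN, in which a nuclease tethered to an antibody releases the bound DNA, gave 2 peak lists per genotype for EZH2 and H3K27me3, and for ATRX in WT and ΔRBR cells. The study calls its replicates biological, and the labels do not say whether they were separate cultures, so that p-values measure the spread between these libraries. The file names of the raw reads had another form for ATRX KD RNA than for WT and ΔRBR RNA, so a sequencing batch and the knockdown cannot be told apart.

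Several properties of the libraries bear on what follows. Atrx RNA was 233 and 141 TPM (transcript abundance scaled to library and transcript length) in WT, 175 and 124 in ΔRBR and 331 and 512 in the libraries labelled ATRX KD. With counts scaled between libraries, its log2 difference from WT was -0.63 ± 0.22 (SE) in ΔRBR and -0.15 ± 0.21 in ATRX KD, and neither passed the test (adjusted p = 0.14 and 0.605, edgeR). Atrx RNA by itself therefore gave no check of the knockdown label, and the study's measurements of ATRX protein are not analysed here. Summed fibroblast markers ranged from 11614.5 to 13949.4 TPM in WT, from 21475 to 23579.4 in ΔRBR and from 18913.3 to 19170.6 in ATRX KD. Vim and S100a4 made up most of this sum. Some other markers were also higher in ΔRBR and ATRX KD than in WT, such as Col1a1 and Fn1. Fn1 had 684 and 806 TPM in WT, 1731 and 1357 in ΔRBR, and 1451 and 1550 in ATRX KD. Others went the other way, such as Twist1 and Col3a1. Col3a1 had 28.1 and 32.2 TPM in WT, 20.3 and 15.8 in ΔRBR, and 0.36 and 0.75 in ATRX KD. Thy1 was at 0 in every library. Over all libraries, summed markers reached at most 0.91 TPM for epithelium, 0.35 for pluripotent cells, 5.38 for endothelium, 2.23 for skeletal muscle and 14.6 for blood. Neural markers summed to 60.95 and 65.57 TPM in WT, 45.43 and 37.94 in ΔRBR and 51.9 and 48.75 in ATRX KD. The main gene of that sum was Sox2 in WT (43.9 and 37.1 TPM, against 18.7 and 17.5 in ΔRBR and 1.1 and 0.55 in ATRX KD) and Map2 in ATRX KD (49.2 and 45.5 TPM, against 14.6 and 25.6 in WT). The part of other cell types in the results was not tested. Among the peak lists, the EZH2 list labelled ΔRBR replicate 2 stood apart from replicate 1. Across the 75 members, its bases covered near the start sites correlated with the WT lists at r = 0.94 and 0.95 and with ΔRBR replicate 1 at r = 0.41, as a description, and it differed from replicate 1 in the presence of a peak at 26 members. The likeness to WT held at the members and not over all genes. Replicate 2 differed from the WT lists in the presence of a peak at 7 and 6 members, and replicate 1 at 21 and 20. Over all protein-coding genes replicate 2 differed from the WT lists at 3562 and 2710, and replicate 1 at 2067 and 2461. Results on EZH2 in ΔRBR cells are given for each list by itself. The lists labelled ATRX KD held 5376 and 7093 EZH2 peaks and 7241 and 6336 H3K27me3 peaks, against 18351 to 22316 and 36011 to 38832 in WT.

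Most of these genes carried H3K27me3 in WT cells. A gene was scored as having a peak where a peak reached within 2 kb of its transcription start site (TSS) in either direction, 4001 bp in all. H3K27me3 peaks stood at 53 of 75 members in each WT list (70.7%), beside 15.6% and 16.4% of all protein-coding genes. EZH2 peaks stood at 65 and 62 members (86.7% and 82.7%), beside 50.5% and 46.8% of all genes. The H3K27me3 peaks were long. Their median width at members was 17359 and 19600 bp, beside 4871 and 5300 bp at all genes with a peak, and the longest lay over Pax2, a gene of kidney and midbrain development, at 131660 and 146739 bp. The lists do not give the read depth behind them.

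The 75 members were put into classes, for which a peak had to be in both WT lists of a target to be present and in neither to be absent. EZH2 and H3K27me3 were both present at 46 members, EZH2 alone at 16, H3K27me3 alone at 4 and neither at 6, while 3 were mixed. Of the 13 TALE genes 8 had EZH2 alone, among them Pbx2, Pbx3, Pbx4, Meis1, Meis2, Irx2 and Irx5. Among the NK-like genes, 24 of 29 carried H3K27me3 in both WT lists. The plot of peak coverage shows these classes gene by gene for 72 of the members.

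**Figure D1:**
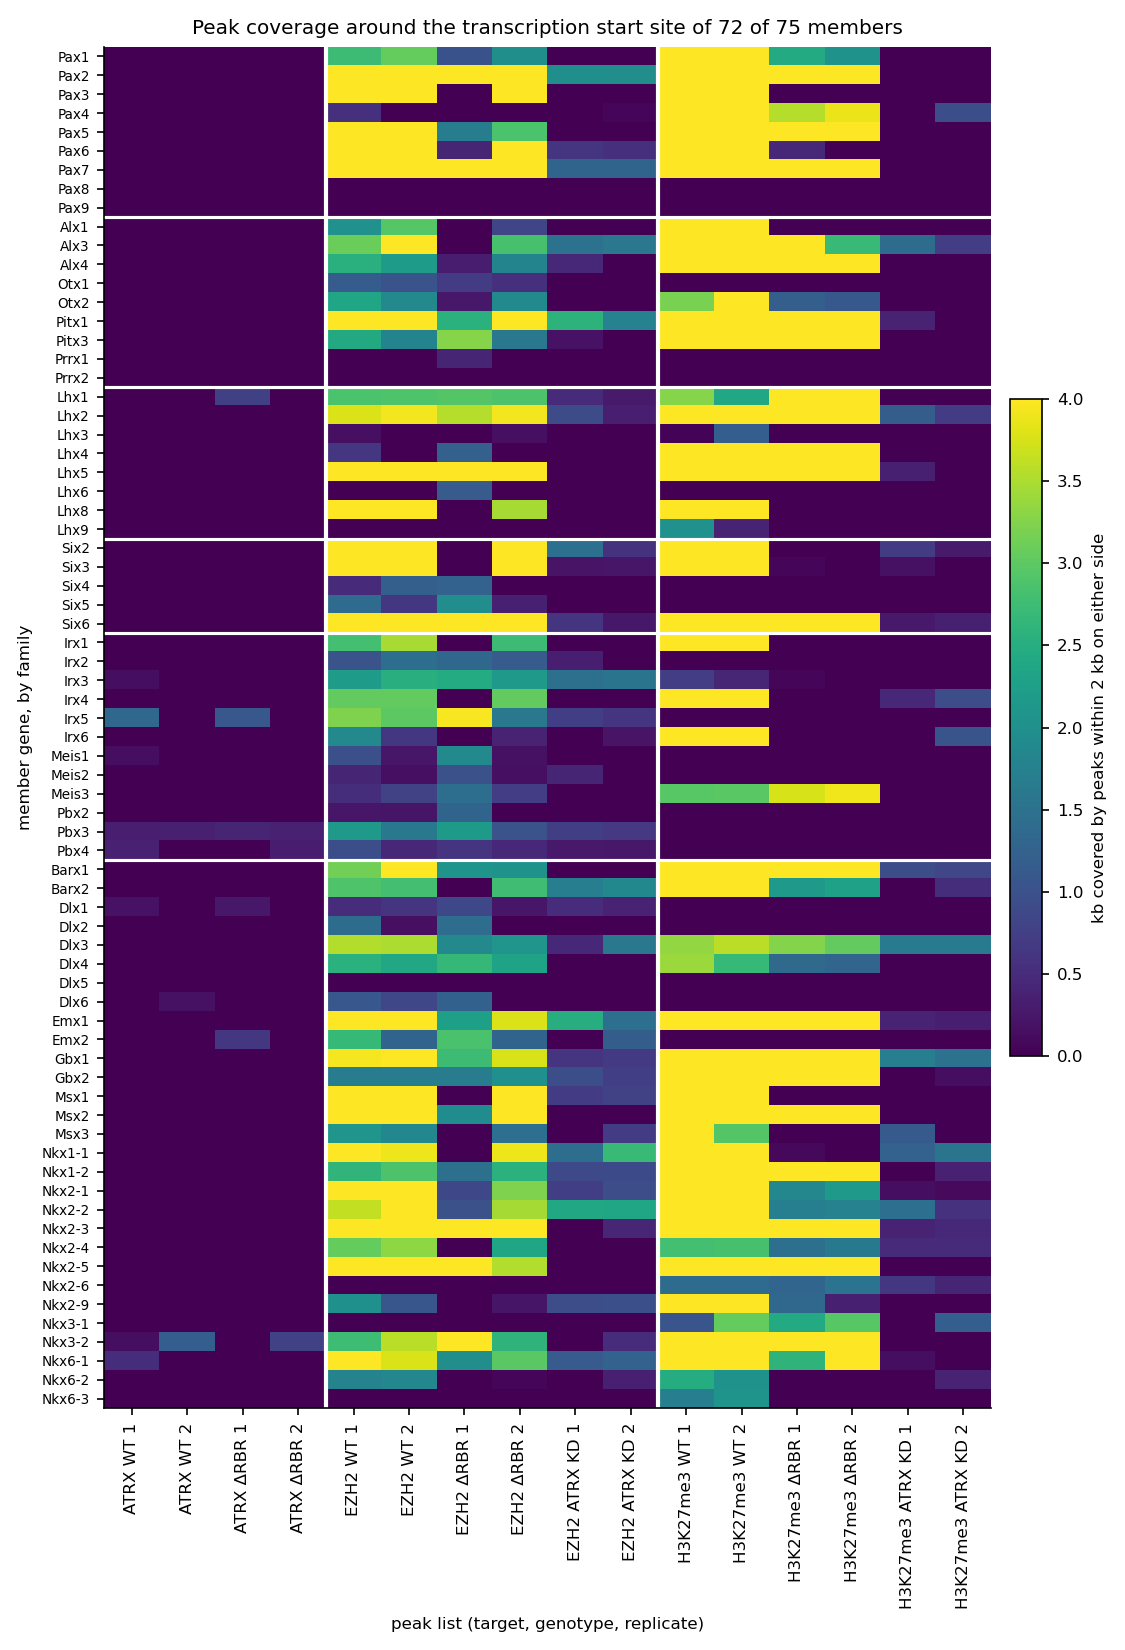
Bases covered by peaks (in kb, colour) within 2 kb of the TSS in either direction, for 72 of the 75 members (rows, by family) in each of the 16 peak lists (columns). H3K27me3 fills the window at most members in WT, some members such as Pax3, Six2 and Msx1 lose it in both ΔRBR lists, and the EZH2 list of ΔRBR replicate 2 looks like the WT lists at those members whereas replicate 1 is empty there.

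The start regions were compared for their content of CpG dinucleotides, as a description over few members. RefSeq promoters (GRCm38.p6, 250 bases before to 50 after the start) were matched for 51 of 75 members, and for 38 of them the start lay within 500 bases of the TSS used here. Their median was 22 CpG per 300 bases. It was 23 for the 27 members with EZH2 and H3K27me3, 19 for the 7 members with EZH2 alone and 7 for the 3 members with neither (Prrx1, Pax8 and Lhx6). All 32851 promoters of the table had a median of 7. They were taken without the limits set for members on genome build, promoters per gene and distance, so the sets are unlike. The classes overlapped, since marked members ranged from 4 CpG at Lhx8 to 50 at Barx1. The sequence TAATTA, which many homeodomains bind, reads the same on both strands. It was in 4 of 51 member promoters (7.84%) and in 5.29% of the same 32851 promoters. The promoters of 6 members are shown to make this contrast visible, with every CpG in capitals, each read 5′ to 3′ along the gene. Those of Six2 (chr17:85688205-85688504, minus strand, 37 CpG), Msx1 (chr5:37824536-37824835, minus strand, 29 CpG) and Irx4 (chr13:73260247-73260546, plus strand, 31 CpG) lay under EZH2 and H3K27me3 in WT cells and lost H3K27me3 in ΔRBR cells. Irx2 (chr13:72628570-72628869, plus strand, 25 CpG) had EZH2 alone, and Prrx1 (chr1:163313601-163313900, minus strand, 6 CpG) and Pax8 (chr2:24475550-24475849, minus strand, 7 CpG) had neither.
Six2: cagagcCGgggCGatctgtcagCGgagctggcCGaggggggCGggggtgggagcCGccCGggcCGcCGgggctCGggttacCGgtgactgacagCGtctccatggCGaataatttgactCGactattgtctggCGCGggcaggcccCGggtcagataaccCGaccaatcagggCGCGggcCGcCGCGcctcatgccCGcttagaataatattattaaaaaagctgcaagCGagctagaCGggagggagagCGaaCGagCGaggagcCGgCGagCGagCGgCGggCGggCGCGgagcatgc
Msx1: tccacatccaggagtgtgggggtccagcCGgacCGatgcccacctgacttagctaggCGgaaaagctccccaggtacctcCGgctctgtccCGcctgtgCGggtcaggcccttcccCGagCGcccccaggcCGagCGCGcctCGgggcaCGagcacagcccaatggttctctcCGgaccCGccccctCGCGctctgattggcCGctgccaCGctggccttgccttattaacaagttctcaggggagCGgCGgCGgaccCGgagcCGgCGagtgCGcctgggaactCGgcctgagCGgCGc
Irx4: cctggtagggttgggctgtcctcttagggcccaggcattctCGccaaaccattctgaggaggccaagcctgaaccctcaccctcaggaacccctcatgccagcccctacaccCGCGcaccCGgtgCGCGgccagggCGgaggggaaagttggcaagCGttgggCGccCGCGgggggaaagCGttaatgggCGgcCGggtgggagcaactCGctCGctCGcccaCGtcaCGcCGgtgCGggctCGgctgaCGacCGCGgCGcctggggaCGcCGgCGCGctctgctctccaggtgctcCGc
Irx2: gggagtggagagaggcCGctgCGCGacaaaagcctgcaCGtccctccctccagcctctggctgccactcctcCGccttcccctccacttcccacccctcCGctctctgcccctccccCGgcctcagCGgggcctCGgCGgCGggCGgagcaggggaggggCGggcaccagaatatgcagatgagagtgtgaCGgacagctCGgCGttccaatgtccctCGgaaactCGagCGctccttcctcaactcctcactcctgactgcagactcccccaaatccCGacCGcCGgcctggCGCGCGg
Prrx1: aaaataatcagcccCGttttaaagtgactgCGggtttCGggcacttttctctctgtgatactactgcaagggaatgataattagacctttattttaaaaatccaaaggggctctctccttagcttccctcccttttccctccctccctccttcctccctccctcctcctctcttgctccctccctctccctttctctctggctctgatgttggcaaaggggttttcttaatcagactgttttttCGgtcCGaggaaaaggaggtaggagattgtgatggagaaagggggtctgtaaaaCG
Pax8: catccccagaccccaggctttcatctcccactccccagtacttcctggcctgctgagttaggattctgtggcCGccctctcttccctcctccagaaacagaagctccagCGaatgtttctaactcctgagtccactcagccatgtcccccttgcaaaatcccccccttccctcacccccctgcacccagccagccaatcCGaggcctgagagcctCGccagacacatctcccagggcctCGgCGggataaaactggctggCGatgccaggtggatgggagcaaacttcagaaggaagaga
The promoters of Six2, Msx1 and Irx4 are dense in capitals over most of their length, as is that of Irx2, while those of Prrx1 and Pax8 hold only scattered ones. Promoters of Pax3 and Irx1 are not in the table.

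WT expression followed the classes. The median of the mean WT TPM was 0 over the 46 members with both marks, where 8 reached 1 TPM, and 16.6 over the 16 members with EZH2 alone, all of which reached it. It was 28.1 over the 6 members with neither and 0 over the 4 members with H3K27me3 alone. Over all protein-coding genes the corresponding medians were 0.105, 35.4, 0 and 0 TPM for both marks, EZH2 alone, neither and H3K27me3 alone. The members with neither mark (Prrx2, Prrx1, Pax9, Pax8, Lhx6 and Dlx5) all reached 1 TPM, whereas 21.2% of all genes of that class did. At Prrx2 and Pax9 an EZH2 peak stood at another annotated start of the gene. These values are descriptions across genes, which are not replicates.

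**Figure D2:**
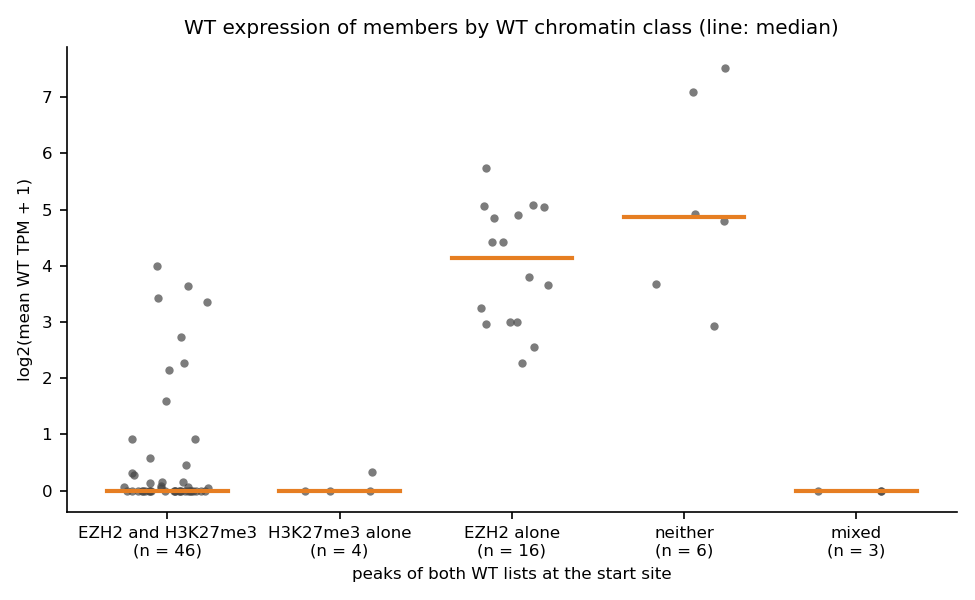
Mean WT expression of each member (points, log2 of TPM plus 1) by the peaks at its TSS in both WT lists, with the class median as a line. Members with EZH2 and H3K27me3 lie mostly at 0, with 8 of 46 at 1 TPM or more, and all 22 members with EZH2 alone or neither mark lie above 1 TPM.

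Marked and unmarked members were neighbours in several clusters. On chromosome 12, Six6, an eye gene, was covered in full by EZH2 and H3K27me3 in WT and had 0 TPM, while Six4, at 174 kb from it, had no H3K27me3 and 11.7 ± 1.02 TPM (SD, n = 2). Also on chromosome 12, Pax9 carried neither mark, and Nkx2-9 and Nkx2-1, the lung and thyroid factor, at 78.5 and 155 kb from it, carried H3K27me3 over all 4001 bp in both WT lists. Among the Dlx pairs, which pattern the jaw and limb, Dlx1 and Dlx2 (18.6 kb apart) and Dlx5 and Dlx6 (18.8 kb apart) had no H3K27me3, whereas Dlx3 and Dlx4 (26.1 kb apart) had it in all WT and ΔRBR lists.

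H3K27me3 was present at fewer members in ΔRBR cells. The count went from 53 and 53 in the WT lists to 39 and 35 in the ΔRBR lists, a mean of 37.0 ± 2.83 (SD, n = 2), while the share of all protein-coding genes was nearly level (16 ± 0.61% in WT and 15.4 ± 1.09% in ΔRBR). With 2 lists against 2, the exact two-sided permutation test cannot go below p = 0.333, which is what this difference gave. In both ΔRBR lists 14 of the 53 marked members (26.4%) had lost the peak, beside 29.2% of the 3225 marked protein-coding genes, a share near that background. None of the 22 unmarked members gained a peak, beside 4.39% of the 18150 unmarked genes. With q of at most 0.01, 1 of 24 unmarked members gained a peak (4.17%, beside 3.26%). Among the lost members were Pax3, Alx1, Lhx3, Lhx8, Lhx9, Six2, Irx1, Irx4, Irx6, Msx1, Msx3, Nkx6-2 and Nkx6-3.

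The extent of the loss differed between members when 20 kb on each side of the start (40 kb in all) were considered. At 6 of the 14 members no H3K27me3 was left there in either ΔRBR list, for example from WT values of 30.8 and 29.6 kb at Alx1, 32.3 and 34.5 kb at Msx1, 29.6 and 32.8 kb at Six2, 16.4 and 20.2 kb at Irx6 and 14 and 16.8 kb at Lhx8. Pax3 went from full coverage to 16.4 and 15.4 kb, all of it away from the start, and Irx1 from 17 and 23 kb to 4.74 and 3.61 kb. Lhx3 (16.1 and 16.9 kb in WT, 15.8 and 13.9 kb in ΔRBR) and Lhx9 (13 and 11.5 kb in WT, 17.7 and 16.3 kb in ΔRBR) kept the mark beside the window. At 9 of the 14 members H3K27me3 covered all 4001 bp of the window in both WT lists and none of it in either ΔRBR list. At Pax3, a gene of neural crest and muscle progenitors, the H3K27me3 peak over the start measured 67160 and 96657 bp in the WT lists (chr1:78155066-78222225 in replicate 1). Six2, which maintains kidney progenitors, had WT peaks of 28252 and 43066 bp, and its neighbour Six3, 74.7 kb away, went from 4001 bp covered in both WT lists to 51 and 0 bp in ΔRBR. The WT peaks measured 28856 and 28817 bp at Msx1, a gene of craniofacial mesenchyme, 26047 and 25983 bp at Irx4, a gene of the heart ventricle, and 15640 and 18856 bp at Irx1. At Lhx3 and Lhx9 the window caught the edge of WT peaks of 11363 and 12272 bp and of 13010 and 11462 bp. In contrast, Six6, Pax2, Pax5, Pax7, Lhx2, Lhx5, Nkx2-3 and Nkx2-5 were covered over all 4001 bp in every WT and ΔRBR list, which does not mean that their domains kept their length. The peak over Six6 was longer in ΔRBR (116680 and 117020 bp in WT, 133294 and 130769 bp in ΔRBR), as were those over Lhx2 and Nkx2-3. The peak over Pax2 was shorter (131660 and 146739 bp in WT, 74713 and 74366 bp in ΔRBR), as were those over Pax5 (67633 and 66365 bp, then 23702 and 30235 bp), Pax7 (56285 and 59412 bp, then 36411 and 34418 bp) and Lhx5. Lost and kept peaks thus occurred within the same families.

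EZH2 went with H3K27me3 in ΔRBR replicate 1 and not in ΔRBR replicate 2. Of the 62 members with EZH2 in both WT lists, 17 (27.4%) had no peak in ΔRBR replicate 1, beside 8.2% of all genes with EZH2 in WT, and 5 (8.06%) had none in replicate 2, beside 23.3%. No member lacked it in both, beside 2.66%. At the 14 members that lost H3K27me3, EZH2 peaks numbered 12 and 11 in the WT lists, 0 in ΔRBR replicate 1 and 12 in ΔRBR replicate 2. Pax3, Six2 and Msx1 were each covered over 4001 bp in both WT lists and in ΔRBR replicate 2 and over 0 bp in ΔRBR replicate 1. Irx1 was covered over 2812 and 3471 bp in WT, 0 bp in ΔRBR replicate 1 and 2749 bp in replicate 2. The same difference was seen over the 943 protein-coding genes that lost H3K27me3, of which 53.7% and 50.5% had EZH2 in WT, 10.5% in ΔRBR replicate 1 and 38.5% in replicate 2. What set the lists apart was not tested. The members without a peak in replicate 2, among them Dlx2, Dlx6, Pbx2 and Six4, were all unmarked by H3K27me3 and with at most 1416 bp of EZH2 in WT.

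The lists labelled ATRX KD held far less of either mark. H3K27me3 peaks stood at 20 and 22 members and EZH2 peaks at 32 and 36 (means of 21 ± 1.41 and 34.0 ± 2.83, SD, n = 2), and again the exact two-sided permutation test gave its least p of 0.333. Of the 53 members marked in WT, 26 (49.1%) had lost H3K27me3 in both lists, beside 58.8% of all marked genes, and 23 of 62 (37.1%) had lost EZH2, beside 40.9%. Whether the members' shares lay below or above those of all genes depended on the settings. Within 1 kb of the start they were 78% beside 65.1% for H3K27me3 and 48.3% beside 41.1% for EZH2, and with q of at most 0.01 they were 86% beside 77% and 51.7% beside 50.8%. Within 5 kb they lay below, at 30.2% beside 54.6% for H3K27me3 and 23.5% beside 40.7% for EZH2. The peaks that remained were short. None of the member peaks in the ATRX KD lists reached 5 kb, whereas 47 and 45 of 53 H3K27me3 peaks did in WT, and over all genes the share of H3K27me3 peaks of that width fell from 49.2% and 51.9% to 0.151% and 0.653%. At Six6, for instance, H3K27me3 covered 275 and 359 bp. Peaks of this width were nearly absent from the ATRX KD lists as a whole, and the depth of the lists is unknown. Members without H3K27me3 in both ATRX KD lists included all Pax genes that were marked in WT except Pax4, the Msx genes Msx1 and Msx2, Nkx2-5, Nkx3-2, Otx2, Lhx1, Meis3, Dlx4, Irx1 and Irx3. EZH2 was absent from both at Alx1, Barx1, Irx1, Irx4, Lhx5, Lhx8, Meis1, Meis3, Pax1, Pax3 and Pax5 among others.

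**Figure D3:**
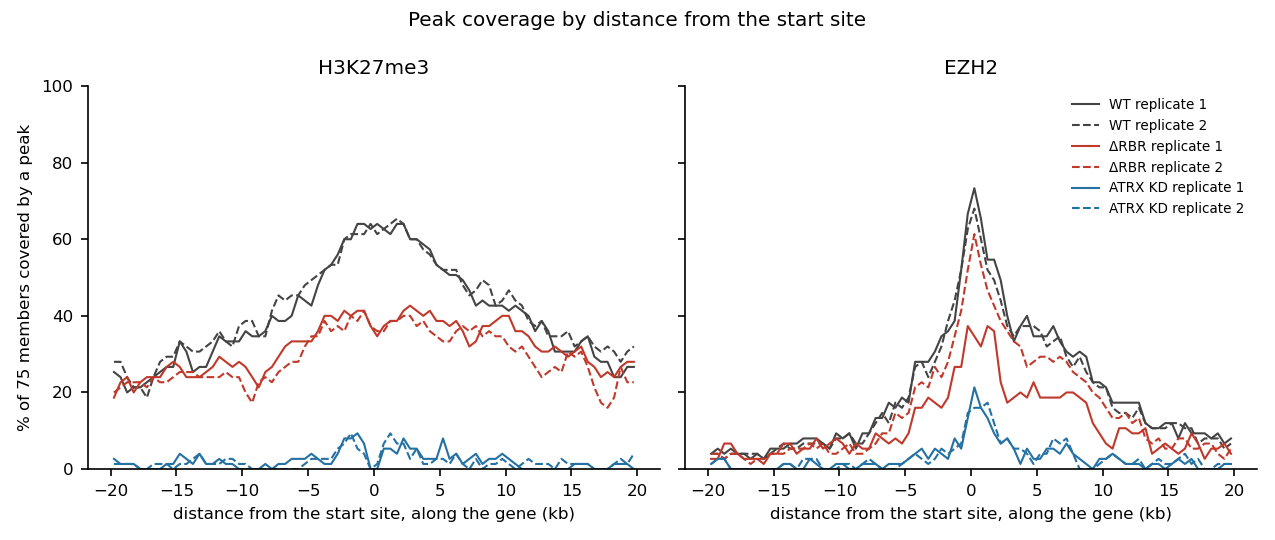
Percent of the 75 members covered by a peak at each distance from the TSS (x axis in kb, positive along the gene), for each H3K27me3 and EZH2 list. The ΔRBR lines of H3K27me3 run below WT near the start and come nearer to it farther along the gene, near the start the EZH2 line of ΔRBR replicate 2 lies closer to WT than that of replicate 1, and the ATRX KD lines are lowest near the start.

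ATRX peaks at these genes were few and short. They stood at 9 and 4 members in the WT lists (12% and 5.33%, beside 12% and 5.76% of all genes) and at 6 and 3 in the ΔRBR lists (8% and 4%, beside 13.6% and 4.97%). In at least 2 lists a peak was seen at 6 members. Pbx3, which encodes a DNA-binding partner of Hox proteins, was the member with a peak in all 4 lists, of 343 to 409 bp and within the same stretch just downstream of the start, at chr2:34372675-34373017 in WT replicate 1, where it lay in an intron, and reaching into an exon and UTR in the others. Nkx3-2 had peaks in both WT lists and ΔRBR replicate 2. Dlx1 and Irx5 had them in replicate 1 of each genotype, and Pbx4 in WT replicate 1 and ΔRBR replicate 2. Of these, all but Nkx3-2 were members with EZH2 alone. As a description, bases covered at the members correlated at r = 0.67 between the replicate 1 lists, 0.89 between the replicate 2 lists and 0.17 between the WT lists. With so few members holding a peak, single genes can set such values. Irx5 had the most bases covered in the replicate 1 lists (1338 in WT and 1089 in ΔRBR). Nkx3-2 had the most in the replicate 2 lists (1199 and 781). In the presence of a peak these pairs of lists differed at 7, 3 and 7 members, and at 2626, 964 and 2267 of all protein-coding genes. The exact two-sided permutation test of the number of members with a peak gave p = 0.667 between the genotypes (means of 6.5 ± 3.54 and 4.5 ± 2.12, SD, n = 2).

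Expression of the members in MEFs was led by a few mesenchymal factors. Of 75 members, 30 had a mean of at least 1 TPM in WT and 17 of at least 10 TPM, while 23 had no count in any of the 6 libraries. Prrx2 and Prrx1, the paired-related genes of limb and facial mesenchyme, were highest. Prrx2 had 196 and 169 TPM in WT, 240 and 288 in ΔRBR, and 155 and 203 in ATRX KD. Prrx1 had 115 and 154 TPM in WT, 199 and 141 in ΔRBR, and 207 and 198 in ATRX KD. Its ΔRBR values lay on both sides of the second WT value, so those groups overlapped, and its ATRX KD values lay above both WT values. Among the TALE genes, whose proteins bind DNA together with Hox proteins or with each other, Pbx2 had 31.8 and 33.2 TPM in WT, 35.9 and 40.1 in ΔRBR, and 31.3 and 40 in ATRX KD. Irx2 had 34.1 and 29.9 TPM in WT, 28.9 and 19 in ΔRBR, and 26.1 and 32.1 in ATRX KD. At Irx2 the ΔRBR values lay below both WT values and the ATRX KD values overlapped with both genotypes, and neither gene passed a test between genotypes. Meis2 had 17.9 and 22.8 TPM in WT, 32.5 and 24.4 in ΔRBR, and 27.4 and 22.1 in ATRX KD. Irx5 had 22.8 and 18.1 TPM in WT, 21.5 and 20.4 in ΔRBR, and 14.6 and 23.6 in ATRX KD. Neither gene was called in any comparison. In the order of means over all libraries, Pax8 and Pax9 stood next to each other, and their values overlapped in WT and ΔRBR and not in ATRX KD.

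**Figure D4:**
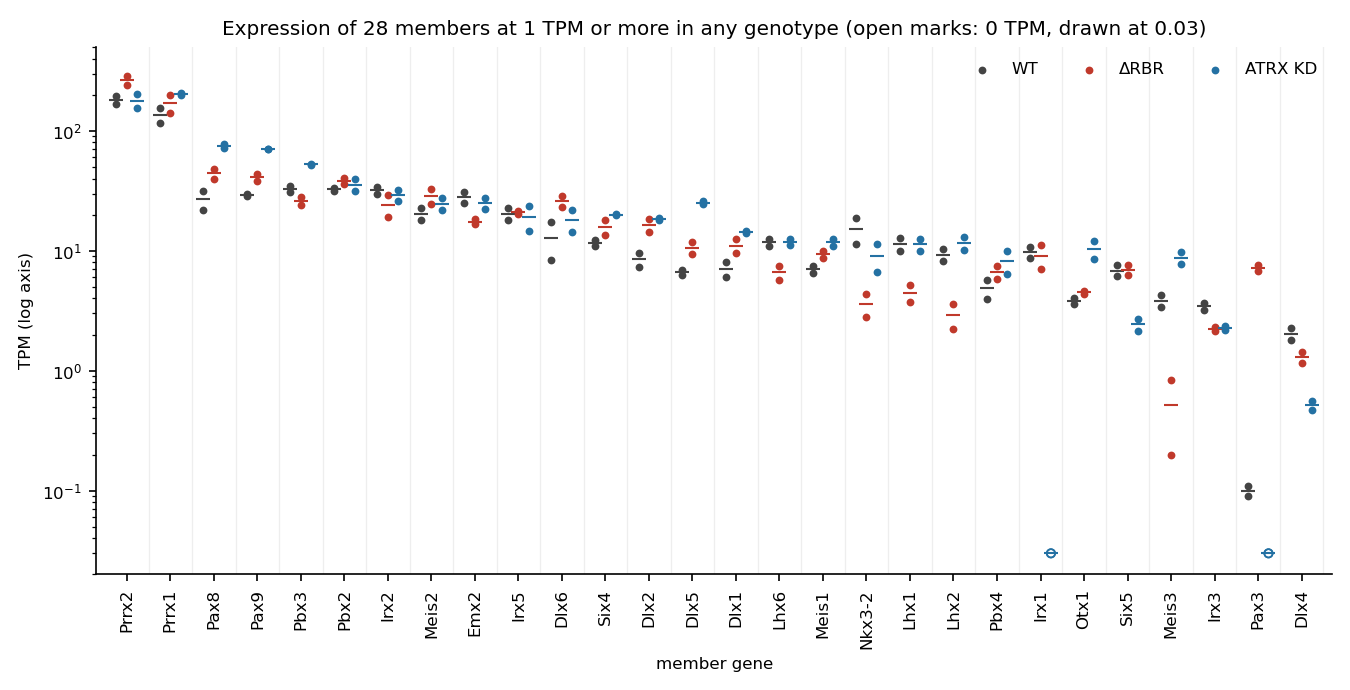
TPM on a log axis in each library (points) with the mean of each genotype (bars) for 28 members that reached a mean of 1 TPM in any genotype, ordered by the mean over all libraries. Prrx2 and Prrx1 are highest, Pax3 reaches 6.82 and 7.56 TPM in ΔRBR and at most 0.11 in the other libraries, and Irx1 is at 0 in both ATRX KD libraries.

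In ΔRBR cells 9 of the 36 members tested differed from WT. The test was edgeR's quasi-likelihood test over 16334 genes, with adjusted p under 0.05. Of the members, 1 rose (2.78%, beside 2.79% of all genes tested) and 8 fell (22.2%, beside 4.07%). The other 39 members had too few counts in these libraries to be tested. Of the 14 tested members with H3K27me3 in both WT lists 6 fell (42.9%), beside 22.7% of the 897 such genes, and of the 22 without it 2 fell (9.09%), beside 3.52% of 11603. In the first group 1 rose (7.14%, beside 6.13%), and in the second none did, beside 3.12%. The median log2 difference was -0.03 over the members tested and -0.02 over all genes tested.

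Pax3 was the member that rose. It had 0.09 and 0.11 TPM in WT, 6.82 and 7.56 in ΔRBR, and 0 in both libraries of ATRX KD, from 2 and 2, 105 and 196, and 0 and 0 counts. No ΔRBR value came near those of the other genotypes. Over the pooled counts the ratio of ΔRBR to WT was 81.4 (95% counting interval 31.5 to 301, which covers counting error only), and the fitted log2 difference was 6.23 ± 0.41 (SE, adjusted p = 0.000335, edgeR). Against ATRX KD, where no count was seen, Pax3 was at least 132-fold higher in ΔRBR, with 3 counts over the group as the floor (adjusted p = 1.51e-05, edgeR). ATRX KD was not tested against WT, for want of counts. Pax3 had lost H3K27me3 from both ΔRBR lists and also from both ATRX KD lists. Of the 4 skeletal muscle markers, Myod1, Myog and Myf5 were at 0 in every library, and Des had 0.37 and 0.21 TPM in WT, 2.23 and 1.76 in ΔRBR, and 0.93 and 0.26 in ATRX KD.

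Among the LIM genes, 3 of the 4 tested fell. Lhx2, of forebrain and limb, had 10.4 and 8.15 TPM in WT, 3.61 and 2.24 in ΔRBR, and 10.2 and 13 in ATRX KD (log2 difference ΔRBR to WT -1.61 ± 0.34, SE, adjusted p = 0.0295). Lhx1, of kidney and head, had 9.99 and 12.8 TPM in WT, 5.17 and 3.73 in ΔRBR, and 9.98 and 12.6 in ATRX KD (-1.34 ± 0.21, adjusted p = 0.00788). Lhx6, of cortical interneurons and oral mesenchyme, had 10.9 and 12.6 TPM in WT, 7.48 and 5.7 in ΔRBR, and 11.2 and 12.5 in ATRX KD (-0.89 ± 0.20, adjusted p = 0.0406). In all 3 the ΔRBR libraries lay below the other 4 without overlap, and ATRX KD was higher than ΔRBR by the direct test, by 1.72 ± 0.23, 1.13 ± 0.18 and 0.69 ± 0.18 on the log2 scale (adjusted p = 0.000646, 0.00175 and 0.017). The other LIM member tested, Lhx9, had 0.27 and 0.25 TPM in WT, 1.18 and 0.5 in ΔRBR, and 0.48 and 0.54 in ATRX KD and did not pass (1.60 ± 0.59, adjusted p = 0.175). Lhx6 was not called by DESeq2, with a replicate block or without WT replicate 1 or ΔRBR replicate 2.

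Nkx3-2, Meis3, Emx2 and Six2 also fell in ΔRBR. Nkx3-2, of vertebrae and the jaw joint, had 18.6 and 11.5 TPM in WT, 2.78 and 4.39 in ΔRBR, and 6.59 and 11.4 in ATRX KD (-2.10 ± 0.38, adjusted p = 0.0161). The gene was lower in each ΔRBR library than in every other library. Meis3, a TALE partner of Hox and Pbx proteins, had 3.38 and 4.27 TPM in WT, 0.2 and 0.84 in ΔRBR, and 7.72 and 9.74 in ATRX KD (-3.19 ± 0.58, adjusted p = 0.0167). Emx2, of forebrain and urogenital tract, had 24.8 and 30.9 TPM in WT, 18.3 and 16.6 in ΔRBR, and 22.4 and 27.4 in ATRX KD (-0.76 ± 0.18, adjusted p = 0.0471), and its call did not hold in DESeq2, with a replicate block or without any 1 of the 4 libraries. The ΔRBR values of both lay below those of the other genotypes. Six2 had 11 and 12 counts in WT (0.74 and 1.05 TPM) and none in ΔRBR, which makes it at least 7.12-fold lower with 3 counts over the group as the floor (adjusted p = 0.0253). Msx1 had 6 and 6 counts in WT and none in ΔRBR, and it did not pass (adjusted p = 0.0699).

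Of the 14 members that lost H3K27me3 in ΔRBR, 6 had enough counts to be tested. Of these 1 rose (Pax3), 2 fell (Six2 among them) and 3 did not pass (Irx1, Msx1 and Lhx9). Irx1 had 8.71 and 10.8 TPM with H3K27me3 over its whole window in WT and 11.1 and 7.09 TPM with none in ΔRBR (-0.10 ± 0.24, adjusted p = 0.867), and its groups overlapped. Of the 248 protein-coding genes tested that had lost the mark, 6.45% rose and 28.6% fell. The 8 lost members not tested, such as Alx1, Lhx8 and Irx6, had at most 2 counts in any WT or ΔRBR library, and a change in them was not detectable at this depth. Among the 35 members that kept H3K27me3 in both lists of both genotypes, 6 were tested and 4 fell (Lhx1, Lhx2, Meis3 and Nkx3-2), beside 21.4% of the 585 such genes tested.

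In ATRX KD cells 17 of the 35 members tested differed from WT. Of the members 10 were higher (28.6%) and 7 lower (20%), while of all 16785 genes tested by edgeR 15.2% were higher and 17.8% lower. Of the 22 tested members without H3K27me3 in WT 9 were higher (40.9%), beside 18.3% of the 11668 such genes, and 3 lower (13.6%, beside 20.6%). Of the 13 with it 1 was higher (7.69%, beside 20.2%) and 4 lower (30.8%, beside 27.1%). Of the 10 tested members that had lost H3K27me3 in ATRX KD, 1 was higher (10%, beside 24.3% of such genes) and 2 lower (20%, beside 21.5%). On the TPM scale the median gene was 0.22 higher (log2) in ATRX KD than in WT, whereas the scaled counts used for the tests put the same genes at -0.02. The direction of the mean TPM was that of the fitted difference for every member called in the 3 comparisons.

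Pax and Dlx genes made up 5 of the 10 members that were higher in ATRX KD. Pax8, of thyroid and kidney, had 22.1 and 31.6 TPM in WT, 48.2 and 40 in ΔRBR, and 72 and 77.4 in ATRX KD (log2 difference ATRX KD to WT 1.18 ± 0.14, SE, adjusted p = 0.00155). Pax9, of the pharyngeal pouches and teeth, had 28.9 and 29.9 TPM in WT, 44 and 38.1 in ΔRBR, and 70.6 and 70.8 in ATRX KD (1.04 ± 0.12, adjusted p = 0.00128). In both, ΔRBR lay between the other genotypes and did not pass its own test. Dlx5 had 6.95 and 6.25 TPM in WT, 9.45 and 11.8 in ΔRBR, and 24.5 and 25.9 in ATRX KD (1.70 ± 0.20, adjusted p = 0.00143). Dlx2 had 9.6 and 7.39 TPM in WT, 14.3 and 18.4 in ΔRBR, and 18.9 and 17.9 in ATRX KD (0.87 ± 0.23, adjusted p = 0.0274). Dlx1 had 6.05 and 8.02 TPM in WT, 12.4 and 9.56 in ΔRBR, and 14.1 and 14.5 in ATRX KD (0.60 ± 0.18, adjusted p = 0.0378), and was not called by DESeq2 or without either ATRX KD library. All 3 were higher in each ATRX KD library than in either WT library. Dlx6, beside Dlx5, had 17.4 and 8.41 TPM in WT, 23.3 and 28.4 in ΔRBR, and 14.4 and 21.8 in ATRX KD and did not pass (0.02 ± 0.30, adjusted p = 0.963), and its WT and ATRX KD values overlapped.

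Among the SINE genes, members went in both directions. Six4 was higher, with 10.9 and 12.4 TPM in WT, 18.1 and 13.4 in ΔRBR, and 20.2 and 19.7 in ATRX KD (0.56 ± 0.12, adjusted p = 0.0137), and its call did not hold without either ATRX KD library. Six5 was lower, with 7.54 and 6.11 TPM in WT, 6.3 and 7.64 in ΔRBR, and 2.16 and 2.71 in ATRX KD (-1.69 ± 0.27, adjusted p = 0.00408). In both the WT and ATRX KD values did not overlap. Six2 had 2 counts in ATRX KD and 23 in WT, a ratio of 0.0705 (95% counting interval 0.00806 to 0.285), and was called by edgeR (adjusted p = 0.0178) and not by DESeq2.

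Otx1, Pbx3 and Meis3 were also higher in ATRX KD. Otx1, of the forebrain, had 4.05 and 3.57 TPM in WT, 4.59 and 4.4 in ΔRBR, and 8.59 and 12 in ATRX KD (1.20 ± 0.22, adjusted p = 0.00729). Pbx3 had 30.8 and 35 TPM in WT, 27.9 and 24.2 in ΔRBR, and 53.2 and 52.3 in ATRX KD (0.51 ± 0.13, adjusted p = 0.0212), and it was not called without either ATRX KD library. In both the ATRX KD values lay above all others. Meis3, whose ATRX KD values were also its highest, was higher by 1.11 ± 0.28 (adjusted p = 0.0211), and was not called by DESeq2 or without ATRX KD replicate 2.

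The members that were lower in ATRX KD included 2 with no count there. Irx1, of lung and limb, had 118 and 98 counts in WT, 69 and 119 in ΔRBR and 0 in both ATRX KD libraries, at least 88.6-fold lower than WT with 3 counts over the group as the floor (adjusted p = 0.000326), and at least 83.2-fold lower than ΔRBR (adjusted p = 3.42e-05). Its H3K27me3 and EZH2 peaks were absent from both ATRX KD lists. Nkx6-1, of pancreas and motor neurons, had 21 and 15 counts in WT, 5 and 1 in ΔRBR and none in ATRX KD, at least 14.7-fold lower than WT (adjusted p = 0.00476). Dlx4 had 1.81 and 2.26 TPM in WT, 1.43 and 1.15 in ΔRBR, and 0.47 and 0.56 in ATRX KD (-2.23 ± 0.48, adjusted p = 0.0122). These genes did not overlap between WT and ATRX KD. Prrx2 (-0.67 ± 0.21, adjusted p = 0.0465) and Emx2 (-0.68 ± 0.15, adjusted p = 0.0123) were lower on scaled counts, while their TPM overlapped with WT. Neither call held without ATRX KD replicate 1, and that of Emx2 was also lost without ATRX KD replicate 2.

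**Figure D5:**
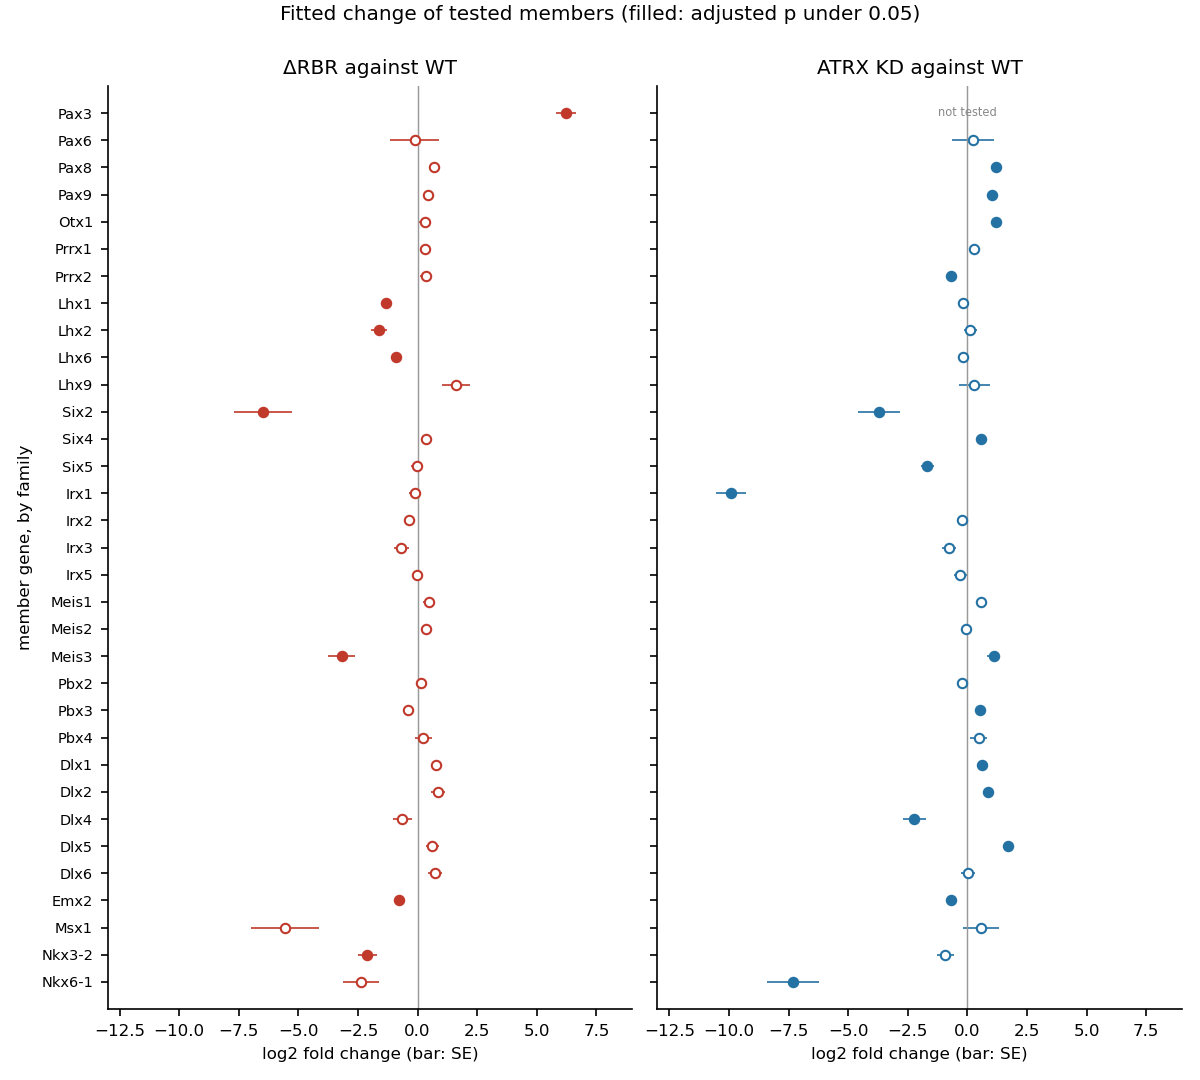
Fitted log2 fold change (point) with its SE (bar) for tested members, 3 of the 75 left out, in ΔRBR against WT (left) and ATRX KD against WT (right), filled where adjusted p was under 0.05. In ΔRBR the filled points lie left of 0 except for Pax3, and in ATRX KD 9 lie to the right and 7 to the left. Fitted values of genes without counts in a group (Six2, Msx1, Irx1 and Nkx6-1) depend on the prior count and are not bounds.

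The genotypes were also compared directly, since both differences above share the WT libraries. Of 34 members tested, 13 were higher in ATRX KD than in ΔRBR (38.2%, beside 16.2% of 16520 genes) and 6 lower (17.6%, beside 18.5%). Among those higher were the LIM genes Lhx1, Lhx2 and Lhx6, then Meis3, Nkx3-2, Msx1, Dlx5, Otx1, Pax8, Pax9 and Pbx3. The difference was 4.28 ± 0.46 at Meis3, 1.15 ± 0.36 at Nkx3-2, 0.91 ± 0.13 at Pbx3 and 0.48 ± 0.13 at Pax8 (log2, SE). Lower were Pax3, Irx1, Prrx2 (-1.04 ± 0.19), Six5 (-1.67 ± 0.26), Dlx4 (-1.60 ± 0.54) and Dlx6 (-0.73 ± 0.23). Msx1 had 2 and 23 counts in ATRX KD and none in ΔRBR, at least 4.87-fold higher, and it was not tested without ATRX KD replicate 2. Pax8, Pax9 and Lhx6 were not called without either ATRX KD library, Nkx3-2 and Otx1 not without replicate 2, Dlx6 not without ΔRBR replicate 2 or ATRX KD replicate 1, and Dlx4 not without any 1 of the 4 libraries. DESeq2 did not call Dlx4, Dlx6 or Nkx3-2, and 1 fit of all 6 libraries did not call Dlx6 or Nkx3-2.

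Protein partners of these factors were also measured, as a list of 20 genes (Eya and Dach partners of SINE proteins, Ldb and Lmo partners of LIM proteins, Pknox partners of Pbx proteins, Tle corepressors, and Paxip1 and Paxbp1). In ΔRBR 1 of 15 tested rose (6.67%, beside 2.79% of all genes) and 3 fell (20%, beside 4.07%), with a median log2 difference of 0.07. In ATRX KD 1 was higher (6.67%, beside 15.2%) and 7 were lower (46.7%, beside 17.8%), with a median of -0.36 beside -0.02 for all genes tested. Eya1, a phosphatase partner of SINE proteins, had 8.14 and 10.6 TPM in WT, 29 and 21.9 in ΔRBR, and 11.9 and 10.2 in ATRX KD (log2 difference in ΔRBR 1.42 ± 0.19, adjusted p = 0.0044). Tle4 had 2.17 and 2.55 TPM in WT, 0.4 and 0.59 in ΔRBR, and 0.33 and 0.27 in ATRX KD, and was lower in both comparisons (-2.27 ± 0.37 and -3.22 ± 0.34). Lmo4, a LIM-only protein, had 150 and 137 TPM in WT, 143 and 167 in ΔRBR, and 68.3 and 66.8 in ATRX KD (-1.35 ± 0.16 in ATRX KD, adjusted p = 0.00128). The ΔRBR libraries stood above all others at Eya1, and the ATRX KD libraries below all others at Lmo4. Lmo1, Pknox2 and Tle4 fell in ΔRBR, and Eya2, Lmo1, Lmo4, Pknox2, Tle4, Paxip1 and Paxbp1 were lower and Eya3 higher in ATRX KD. Eya1, Tle4 and Lmo4 were picked from the list after their values were seen.

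Some members share ground with other genes. The annotation places a gene on the opposite strand over 32 of the 75, among them Dlx1, Dlx4, Dlx6, Emx2, Lhx2, Pax8, Pax9, Pbx3 and Prrx1. The library kit was directional, but the strand setting of the counting is not given in the sources used here, so values of these members may hold reads of the overlapping gene. In these bulk samples, fewer cells of a type and less RNA per cell cannot be told apart.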

How the data were processed

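RNA-Seq and CUT&RUN data of WT, ΔRBR and ATRX KD MEFs were analysed, with groups from the sample labels. The authors aligned polyA RNA-Seq reads with STAR and deposited RSEM estimated counts, TPM and FPKM per gene, of which FPKM values were not used. They aligned CUT&RUN reads with Bowtie2 to mm10 and called broad peaks in each library with MACS2 at a cutoff of 0.1. The deposited lists give each peak's fold enrichment, −log10 p and −log10 q, and a score that was not used. Peaks do not carry the reads behind them, and the IgG libraries are not analysed here.

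Estimated counts were rounded, genes with more than 10 in total were kept, and the groups compared were tested with the quasi-likelihood test of edgeR 4.0.16 in R 4.3.3 with TMM scaling and Benjamini-Hochberg adjustment over all genes tested. A gene was called at an adjusted p under 0.05. All adjusted p-values in the text come from that fit, except where DESeq2 1.42.0 is named. The test was checked on simulated counts. Libraries held 9051712 to 21723597 estimated counts. Values below 10 counts rest on few reads.

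Peaks were counted within 2 kb of the outermost start of each gene in GENCODE M21, in Python 3.11.15 with pandas 2.3.3. A peak was called lost where both WT lists had it and neither list of the other genotype did. Numbers of members were compared with an exact permutation test over lists. Member promoters were the GRCm38.p6 entries of a RefSeq promoter table nearest to the TSS of each gene, and were compared with all entries of that table.

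Members named with values were those called in RNA-Seq, the 15 of highest mean TPM, those with ATRX peaks in at least 2 lists and those that lost a peak. Results of some single genes, 3 members among them, are not reported here, while counts cover all 75. The members and lists were chosen with earlier results of these data known. Alternatives were DESeq2, other scaling and filters, 1 fit of all libraries, a replicate block, windows of 1 and 5 kb, q of at most 0.01, at least 500 bp covered, any annotated transcript start, and each library left out.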

Additional observations from a re-analysis of the deposited data

Results flagged for a closer look

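Meis3 differed between the genotypes in opposite directions, having fallen in ΔRBR and risen in ATRX KD relative to the same WT libraries. The direct test of ATRX KD against ΔRBR gave a log2 difference of 4.28 ± 0.46 (SE, adjusted p = 0.000203, edgeR). Its counts were 41 and 29 in WT, 1 and 6 in ΔRBR, and 51 and 139 in ATRX KD. The gene kept H3K27me3 in both ΔRBR lists and lost it from both ATRX KD lists.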

How the results depend on the processing

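No fitted difference of a called member turned its direction. The order of WT and ΔRBR in the mean number of members with an ATRX peak turned with at least 500 bp covered. The members' share of losses in ATRX KD lay below that of all genes or above it, depending on the window and q. Of 137 alternatives for counts, class medians and numbers of members, 110 left the value within its limits and 27 moved it, and of 572 alternatives for single genes 62 lost the call and 51, all on the log2 TPM scale in place of the fit, moved the value. The number of members called against WT in ΔRBR was 9, and 5 with at least 10 counts in every library, where Pax3, Six2, Meis3 and Emx2 were lost, the first 3 of them for having fewer counts than that in a library. Of all genes, 1119 of 16334 were called, and 597 of 11929 with that filter. With a log2 change of at least 1, ATRX KD gave 10 in place of 17 and the direct comparison 12 in place of 19. Over all genes these were 2495 in place of 5538 and 2612 in place of 5734. Leaving out 1 library gave 7 to 11, 12 to 24 and 11 to 21 members, and DESeq2 gave 7, 15 and 16. Over all genes, leaving out 1 library gave 1055 to 1520, 3193 to 8947 and 3089 to 8736 calls. DESeq2 gave 1123, 4820 and 4731. Of the 24 in ATRX KD without WT replicate 2, 7 were added, while the calls over all genes also rose, to 8947 of 16036.

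The mean number of members with an ATRX peak in WT (6.5) was 2.5 with q of at most 0.01, 1.5 with at least 500 bp covered, and 4 to 9 with 1 list left out. In ΔRBR (4.5) it was 7 within 5 kb, 2 with the stricter q, 2 with 500 bp, and 3 to 6 with 1 list. H3K27me3 in ATRX KD (21) was at 9 members within 1 kb, 32 within 5 kb, 4.5 with the stricter q and 11 with 500 bp. The loss rules were tried under alternatives chosen after seeing the data. H3K27me3 was lost from ΔRBR at 9 members within 5 kb (17%, beside 22.3% of all marked genes) in place of 14 (26.4%, beside 29.2%). EZH2 was lost from ΔRBR at 1 within 1 kb (1.67%, beside 2.82% of all genes with EZH2) and 1 within 5 kb (1.47%, beside 2.57%). With the stricter q it was lost at 3 (5.17%, beside 3.18%). With 1 list left out it was lost at 0 to 17. These were 17 without ΔRBR replicate 2 (27.4%, beside 8.2%), 5 without ΔRBR replicate 1 (8.06%, beside 23.3%) and 1 without WT replicate 2. H3K27me3 was lost from ATRX KD at 16 within 5 kb (30.2%, beside 54.6%) and 43 with the stricter q (86%, beside 77%) in place of 26 (49.1%, beside 58.8%). The class medians of WT TPM were 0.895 for EZH2 with H3K27me3 and 0.26 for H3K27me3 alone among members of at least 0.1 TPM, 0.13 for H3K27me3 alone with the stricter q, and 20.39 for EZH2 alone within 1 kb. The cause of these shifts was not tested.

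The labels link replicates of the genotypes only by a number. The deviations of same-numbered libraries correlated at -0.63 between WT and ΔRBR, -0.11 between WT and ATRX KD and 0.14 between ΔRBR and ATRX KD over 12768 genes. With 2 libraries per genotype, a negative value means that libraries of unlike number deviated together, as in WT and ΔRBR. A block by replicate number does not follow that direction, and its source was not tested. With a replicate block, 8, 18 and 20 members were called in ΔRBR against WT, ATRX KD against WT and ATRX KD against ΔRBR. Over all genes tested the calls were 1071, 5792 and 6775 in that order. The block ended the calls of Emx2 and Lhx6 and added Msx1 in the first, and added Nkx3-2 in the second and Meis2 in the third. Depth limits the 39 members that were tested in no comparison.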

Other observations

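The homeobox genes outside both Hox and the families above were measured too, as a list of 99 genes of which 98 had a row. In ΔRBR 3 of 40 tested rose (7.5%, beside 2.79% of all genes, Onecut2 and Shox2 among them) and 2 fell (5%, beside 4.07%, Pknox2 and Tshz3), with a median log2 difference of 0.10. In ATRX KD 17 of 41 tested were higher (41.5%, beside 15.2% of all genes) and 7 lower (17.1%, beside 17.8%), with a median of 0.63 beside -0.02 over all genes tested. Shox2, a gene of limb mesenchyme, had 8.07 and 8.03 TPM in WT, 20.6 and 18.8 in ΔRBR, and 1.31 and 0.66 in ATRX KD. Gsc, of the embryonic organizer, had 7.35 and 5.37 TPM in WT, 5.43 and 9.28 in ΔRBR, and was listed at 0 in both ATRX KD libraries. Mkx, a tendon gene, had 9.93 and 9.26 TPM in WT, 9.43 and 8.18 in ΔRBR, and 29 and 23.7 in ATRX KD. These genes were picked after their values were seen.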
